A study of Mus musculus with 4 samples.

Results

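Striatal projection neurons, the spiny GABAergic neurons that carry the output of the striatum, made up 269 of the 23489 barcodes in this single-nucleus RNA-seq study of brain injury. They were chosen by their own transcripts. A member had at least 3000 unique molecular identifiers (UMIs, each marking 1 captured transcript), 2 or more UMIs of the GABA-synthesis genes Gad1 and Gad2 together, at most 1 UMI of the excitatory neuron gene Slc17a7, and 5 or more UMIs of Rgs9, Drd1 and Drd2 summed, with Rgs9 seen. Members with more Drd1 than Drd2 UMIs are called Drd1-type (119 nuclei), those with more Drd2 than Drd1 UMIs are called Drd2-type (99 nuclei), and 51 nuclei had equal numbers. Because these 6 genes chose the members, their levels are given as a description only.

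Striatal projection neurons receive cortical and thalamic glutamate input and dopamine from the midbrain. In the direct pathway, neurons carry the D1 receptor, which raises cAMP through the G protein Gαolf, and they release GABA with substance P and dynorphin. In the indirect pathway, neurons carry the D2 receptor, which lowers cAMP, together with an adenosine receptor encoded by Adora2a, and they release GABA with enkephalin. Rgs9 encodes a striatum-enriched regulator that shortens G-protein signals, and Ppp1r1b encodes DARPP-32, a phosphatase inhibitor through which dopamine and cAMP act in both pathways.

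Nuclei were collected 21 days post-injury (dpi) from brains with a photothrombotic (PT) lesion, a focal cortical injury produced when light activates a dye in the blood. The library labelled control came from WT mice, and the library labelled Cxcl12-cKO came from Col1a2(creER); Cxcl12(flox) mice, in which tamoxifen activates a Cre recombinase expressed in fibroblasts, not in neurons. Each genotype was 1 library holding pooled tissue of 1 male and 1 female mouse, so nuclei are not replicates, no test between genotypes is possible, and a mouse is told apart only by its sex-linked transcripts. Lesion and parenchyma were dissected apart, tagged, and mixed at a ratio set by the authors before sorting on DAPI and capture with 3′ chemistry. The study's methods say that subcortical structures were taken away during dissection, yet 222 of the 269 members (82.5%) carried the parenchyma tag, so the tissue label of perilesional cortex did not cover every neuron captured.

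Every interval below is a 95% interval of counting error, which takes no account of differences between mice, libraries or captures. The libraries labelled control and Cxcl12-cKO held 97470948 and 94745085 UMIs, and their members had medians of 15674 and 14479 UMIs (range over all members, 3138 to 44845). The deleted gene gave no check of the genotype labels. Cxcl12 stood at 101 CPM (counts per 1000000 UMIs; 95.6 to 106) in 3939 lesional barcodes with 5 or more UMIs of fibroblast collagen genes and Dcn in the library labelled control, and at 223 CPM (215 to 231) in 3170 such barcodes in the library labelled Cxcl12-cKO, and 3′ counts need not show the deleted part. Directions below are therefore between libraries as labelled. In the members themselves, 4 UMIs of Cxcl12 were counted in each library. The libraries shared 47 barcodes, none of them a member.

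Each region of each library was read from a short tag sequence, so the region of a member rests on these 15-base barcodes, shown 5′ to 3′ with the whole barcode in capitals.
control, lesion: GTTGATCTATAACAG
control, parenchyma: GCAGGAGGTATCAAT
Cxcl12-cKO, lesion: GAATCGTGATTCTTC
Cxcl12-cKO, parenchyma: ACATGGTCAACGCTG
The median member carried 6444, 3757, 5446 and 3368 UMIs of its own tag in that order, against 130 to 201 UMIs of the tag of the other region. Its own tag was above the other region's in all 269 members. The lowest share of own tag in a member was 55.0%, in control parenchyma.

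Most members came from parenchyma. Control lesion held 10 members, control parenchyma 103, Cxcl12-cKO lesion 37 and Cxcl12-cKO parenchyma 119. Set against all nuclei with the same depth, Gad and Slc17a7 limits (GABA-gated nuclei), members were 8.20% (4.00 to 14.6) of 122 nuclei in control lesion and 22.8% (19.0 to 26.99) of 451 in control parenchyma. The matching shares labelled Cxcl12-cKO were 33.6% (24.9 to 43.3) of 110 in lesion and 24.0% (20.3 to 28.0) of 496 in parenchyma. The parenchyma shares overlapped between libraries, and the lesion shares did not. Over both regions the share was 19.7% in the library labelled control and 25.7% in that labelled Cxcl12-cKO, which gives 0.38 on the log2 scale (−0.06 to 0.83).

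Mouse and region could not be told apart in the Cxcl12-cKO lesion. Of its 37 members, 30 carried only female transcripts, 1 only male, and 6 both. For nuclei assigned to female mice the share was 16.1% labelled control and 29.8% labelled Cxcl12-cKO. For nuclei assigned to male mice it was 23.5% and 22.6%. In parenchyma alone the log2 ratio of the shares was 0.07 (−0.41 to 0.56).

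**Figure D1:**
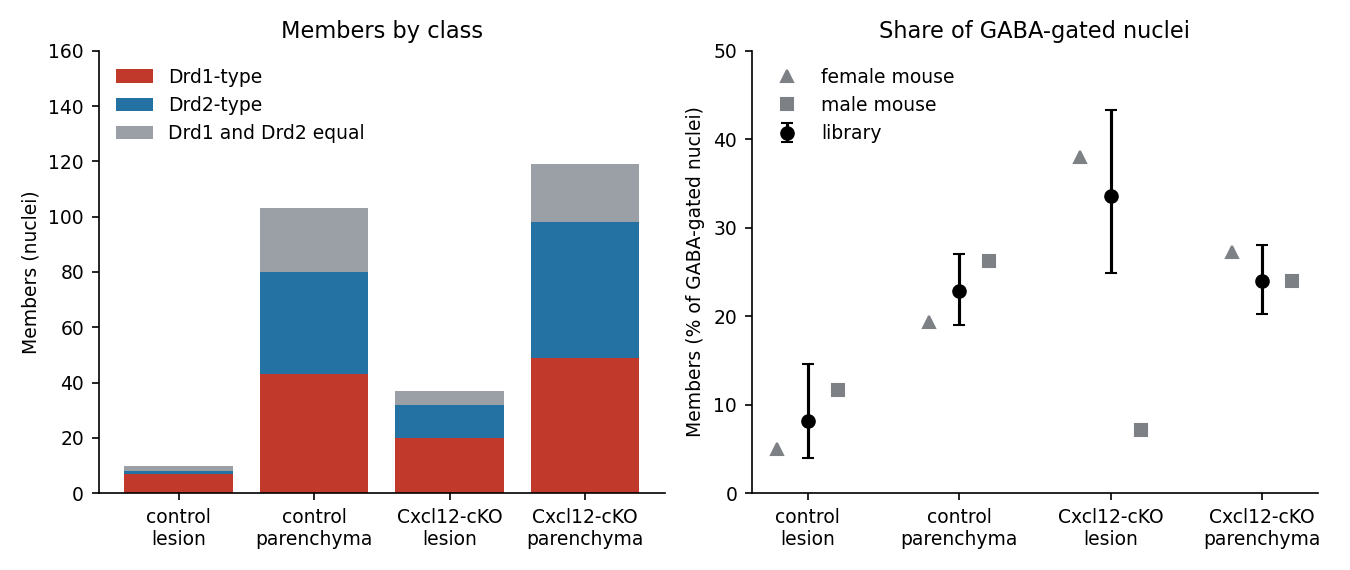
Left, number of members (nuclei) by class in each region of each library, stacked as Drd1-type, Drd2-type and equal. Right, members as % of GABA-gated nuclei, with the library value and its 95% exact binomial interval (black) and the nuclei assigned to the female and male mouse (grey). Cxcl12-cKO lesion stood at 33.6%, with 38.0% among female and 7.14% among male nuclei.

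The 2 receptor genes were rarely counted in the same nucleus. Drd1 alone was counted in 118 members, Drd2 alone in 97, both in 4 and neither in 50. The highest Drd1 count was 8 UMIs and the median in Drd1-type nuclei was 2 in each library. Drd2 was counted more deeply, with a median in Drd2-type nuclei of 10.5 UMIs labelled control and 6 labelled Cxcl12-cKO and a highest count of 28. Of the 119 Drd1-type nuclei 50 rested on 1 Drd1 UMI, against 4 of the 99 Drd2-type nuclei on 1 Drd2 UMI. Rgs9 stood at 1116 CPM (control label) and 1076 CPM (Cxcl12-cKO label) in Drd1-type nuclei, and at 766 and 820 CPM in Drd2-type nuclei.

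The balance of the pathways differed by less than counting error between the libraries, though more widely between mice. Drd1-type nuclei were 44.25% (34.9 to 53.9) of members labelled control and 44.23% (36.3 to 52.4) of members labelled Cxcl12-cKO. Among nuclei with a class they were 56.8% (45.8 to 67.3) and 53.1% (44.1 to 61.9). By matrix, the Drd1-type, Drd2-type and equal counts were 7, 1 and 2 in control lesion and 43, 37 and 23 in control parenchyma. They were 20, 12 and 5 in Cxcl12-cKO lesion and 49, 49 and 21 in Cxcl12-cKO parenchyma. Asking for a margin of 3 UMIs left 18.6% and 10.3% of members as Drd1-type, the other members then having no class or being Drd2-type. By mouse the share was 60.5% (44.4 to 75.0) among female and 35.2% (22.7 to 49.4) among male nuclei labelled control, and 46.9% (36.8 to 57.3) and 42.1% (26.3 to 59.2) labelled Cxcl12-cKO.

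**Figure D2:**
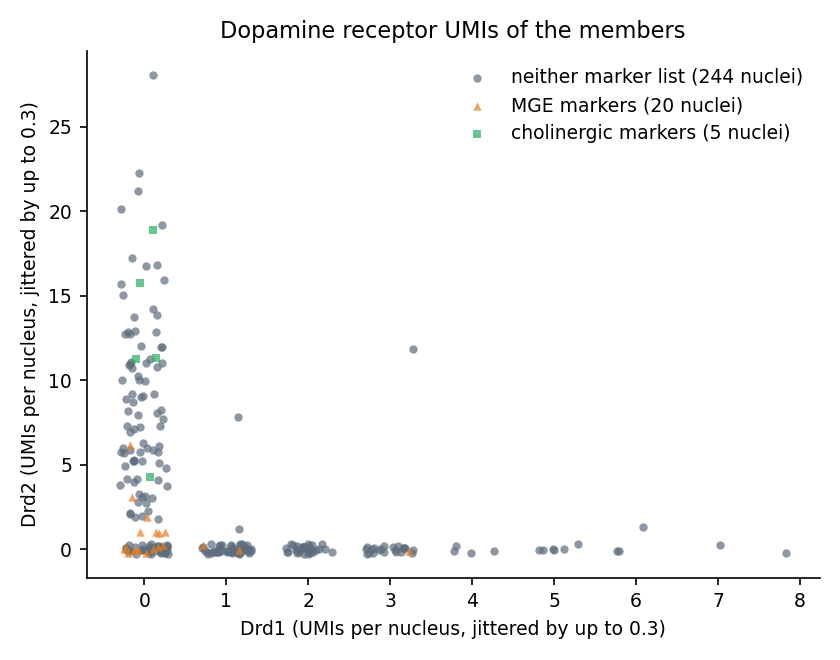
Drd1 UMIs (horizontal) and Drd2 UMIs (vertical) of each of the 269 members, each moved by up to 0.3 so that points do not hide each other. Points lie along one axis or the other and only 4 members have both receptors; orange triangles (20 nuclei) and green squares (5 nuclei) carry 10 or more UMIs of interneuron marker lists.

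The label held for most members, not for all. A list of 15 other striatal projection neuron genes, among them Ppp1r1b, the cAMP phosphodiesterase gene Pde10a and the transcription factor genes Bcl11b, Foxp1, Meis2 and Rarb, summed to 12673 CPM in members and 2185 CPM in 765 other GABA-gated nuclei with a score of 1 or 0. Among the members, 5 had 10 or more UMIs of the acetylcholine genes Chat, Slc5a7 and Slc18a3. These 5 were all Drd2-type, each had 1 Rgs9 UMI, and together they had 78 Chat and 70 Slc5a7 UMIs, no Ppp1r1b UMI and 541 CPM of the 15-gene list. Another 20 members had 10 or more UMIs of genes of interneurons from the medial ganglionic eminence (MGE), with Nxph1 at 3463 CPM, Sst summing to 86 UMIs and no Ppp1r1b UMI; 3 were Drd1-type, 7 Drd2-type and 10 equal. The remaining 244 members had 14293 CPM of the list. Several results that the 25 marked nuclei touch are given with and without them. Others, among them Ptprm, Htr4, Htr2c, the shares of nuclei at a common depth and the correlations, are given only with them.

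The nuclei beside the threshold showed where the rule blurs. The summed score of Rgs9, Drd1 and Drd2 ran from 5 to 62 with a median of 18. At a score of 5, just inside, 14 nuclei had 2911 CPM of the 15-gene list and 10 of them carried an interneuron list. At a score of 6 the list stood at 6370 CPM. Just outside, 23 nuclei with a score of 4 had 4253 CPM and 33 with a score of 3 had 3784 CPM.

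Against the other GABA-gated nuclei the values are a description, since the rule chose on this contrast. Of 12826 genes measured, 768 (5.99%) were at least 2-fold higher in members in both libraries and 1191 (9.29%) at least 2-fold lower. All 15 genes of the striatal list were among the higher. Ppp1r1b stood at 63.0 CPM in members against 0.183 CPM in other nuclei labelled control, and at 59.98 against 0.182 CPM labelled Cxcl12-cKO. Rarb, a retinoic acid receptor gene, stood at 1539 against 74.0 and 1732 against 61.0 CPM. Adcy5, which encodes the main striatal adenylyl cyclase, stood at 724 against 51.0 and 614 against 46.8 CPM. The 10 genes that set members apart most, the rule's genes left out, were Mhrt, Sh3rf2, Adora2a, Ppp1r1b, Tspear, Gm50024, 1700003D09Rik, Impg1, Prkch and Dclk3. Mhrt, a long non-coding RNA gene, was counted at 73.4 and 78.9 CPM in members against 0.183 and 0.182 CPM in other nuclei.

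Interneuron genes were among the lowest in members. The 10 lowest were Mybpc1, Pvalb, Gm26633, Vip, 6330411D24Rik, Frem1, Egfros, Kit, Hapln1 and Kcns3. Pvalb, the calcium-binding protein gene of fast-spiking interneurons, had no UMI in members and 174 and 182 UMIs in the other nuclei, at least 20.5-fold and 27.4-fold higher when 3 UMIs are put in place of 0 over the members. Vip, a neuropeptide gene of another interneuron class, had 0 and 2 UMIs in members against 434 and 378. Mybpc1 had none, against 200 and 168.

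The direct and indirect pathways separated on many genes beside the receptors. Of 7473 genes with at least 20 UMIs over both classes in each library, 44 (0.589%) were at least 2-fold higher in Drd1-type nuclei in both libraries and 125 (1.67%) in Drd2-type nuclei. Without the 25 interneuron-marked nuclei the Drd2-type count was 41. The classes were cut from Drd1 and Drd2, so the split is described and not tested, and each library is shown apart.

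Among direct pathway genes, 4 of the 5 measured passed 2-fold towards Drd1-type nuclei in both libraries. Ebf1, a transcription factor gene of direct pathway development, stood at 318 CPM in Drd1-type and 7.49 CPM in Drd2-type nuclei labelled control, and at 341 and 0.939 CPM labelled Cxcl12-cKO, log2 ratios of 5.27 (4.17 to 7.04) and 7.92 (6.02 to 13.81). Tac1, the substance P precursor, had 92 UMIs in Drd1-type and 3 in Drd2-type nuclei labelled control (107 and 4.50 CPM), and 98 and 0 labelled Cxcl12-cKO, at least 33.4-fold higher. These levels did not overlap between classes in either library. Pdyn, the dynorphin precursor, was counted only on the Drd1 side among these classes, with 15 and 39 UMIs against 0 and 0, at least 3.90-fold and 13.3-fold higher. Sfxn1, a mitochondrial serine carrier gene, had log2 ratios of 1.38 (0.54 to 2.39) and 1.36 (0.67 to 2.12), and Eya1, a transcriptional cofactor gene, of 1.67 (0.34 to 3.54) and 1.51 (0.42 to 2.84). Isl1, a transcription factor gene shared by direct pathway and cholinergic neurons, stood at −0.46 (−1.62 to 0.69) and 1.13 (0.03 to 2.41). Without the marked nuclei it had 12 and 22 UMIs in Drd1-type nuclei and none in Drd2-type nuclei.

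Indirect pathway genes moved the other way, and 5 of the 6 measured passed 2-fold in both libraries. Adora2a, the adenosine receptor gene, had no UMI in Drd1-type nuclei and 82 (123 CPM) and 153 (144 CPM) in Drd2-type nuclei, at least 35.1-fold and 49.9-fold higher. Penk, the enkephalin precursor, stood at 24.5 CPM in Drd1-type against 237 CPM in Drd2-type nuclei labelled control and at 18.2 against 241 CPM labelled Cxcl12-cKO, log2 ratios of −3.24 (−4.00 to −2.61) and −3.69 (−4.48 to −3.05). Its level in Drd2-type nuclei was thus close in both libraries. Grik3, a kainate receptor subunit gene, stood at 4.68 against 304 and 22.1 against 306 CPM. Oprd1, the delta opioid receptor gene, had 0 and 3 UMIs in Drd1-type against 58 and 73 in Drd2-type nuclei. Ptprm, a receptor phosphatase gene, stood at 144 against 412 CPM and 144 against 689 CPM. Six3 was the member of the list that did not pass, at 0.24 (−0.82 to 1.39) and −0.50 (−1.36 to 0.32). Gpr6 and Gpr52, orphan receptor genes below the UMI minimum, had 0 and 0 and then 1 and 0 UMIs in Drd1-type nuclei against 16 and 20 and then 11 and 17 in Drd2-type nuclei.

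Genes that both pathways share had like levels in the classes. None of the 15 striatal identity genes and none of the 16 genes from dopamine to cAMP passed 2-fold in either direction, a count near the shares of all genes (0.589% and 1.67%). Ppp1r1b stood at 72.5 and 54.0 CPM in Drd1-type and Drd2-type nuclei labelled control and at 70.0 and 58.2 CPM labelled Cxcl12-cKO. Foxp1 stood at 2390 and 2365 CPM and then at 2396 and 2248 CPM. The summed identity list leaned to Drd1-type nuclei, with log2 ratios of 0.25 (0.21 to 0.29) and 0.22 (0.18 to 0.25). Of the 25 marked nuclei 12 were Drd2-type and 3 Drd1-type. Without them Pde10a went from 0.26 and 0.22 to −0.12 (−0.19 to −0.05) and 0.10 (0.04 to 0.16), and Foxp1 from 0.02 and 0.09 to −0.39 (−0.48 to −0.29) and −0.08 (−0.16 to 0.00).

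**Figure D3:**
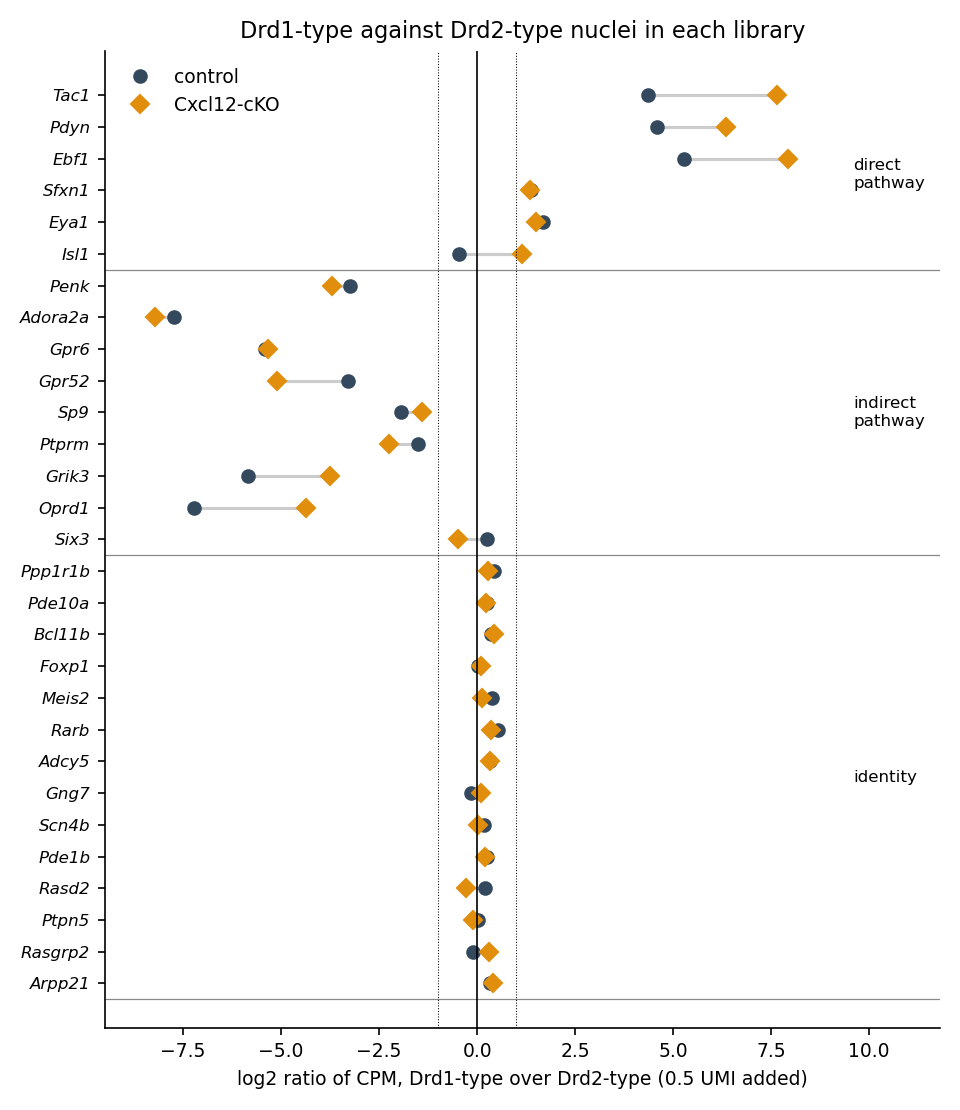
Log2 ratio of CPM in Drd1-type over Drd2-type nuclei (horizontal, 0.5 UMI added to each sum) for direct pathway, indirect pathway and identity genes in the libraries labelled control (circles) and Cxcl12-cKO (diamonds), with dotted lines at 2-fold. The identity genes drawn lie within the dotted lines; genes with no UMI in a class, such as Adora2a and Pdyn, take their place from the added 0.5 UMI and are no measure of size.

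The genes that differed most were partly outside these lists. On the Drd1 side they were Ebf1, Tac1, Adarb2, Cntnap3, Ankfn1, Lingo2, Kcnk13, Foxp2, Erbb4 and Gm56610. Adarb2, a gene of the RNA-editing enzyme family, stood at 872 CPM in Drd1-type against 19.5 CPM in Drd2-type nuclei labelled control and at 766 against 70.4 CPM labelled Cxcl12-cKO. It is also a marker of interneurons from the caudal ganglionic eminence (CGE), and stood at 4778 and 4545 CPM in other GABA-gated nuclei. The interneuron marks given above used no CGE genes. Foxp2, a transcription factor gene, stood at 1124 against 312 CPM and 854 against 159 CPM. Erbb4, a neuregulin receptor gene, stood at 519 against 129 CPM and 702 against 225 CPM, and Drd2-type nuclei stood at 26.3 and 72.1 CPM without the marked nuclei.

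On the Drd2 side they included Adora2a, Oprd1, Grik3, Trpc4, Tacr1, Penk, Cpne4, Chrm3 and Nell1. Chrm3, a muscarinic receptor gene, stood at 50.3 against 508 CPM and 80.6 against 595 CPM, and Nell1, a secreted protein gene, at 51.4 against 376 CPM and 40.3 against 312 CPM. Of these, Tacr1 and Cpne4 rested on the interneuron-marked nuclei. Without them Tacr1, the substance P receptor gene, went from log2 ratios of −3.54 and −3.45 to −0.55 and 1.43, and Cpne4 from −4.97 and −3.07 to −0.44 and −0.78. The other genes named here for either side stayed past 2-fold in the same direction in both libraries.

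Neuromodulator receptors gave further differences. Htr4, a serotonin receptor gene, stood at 49.1 against 144 CPM and 71.9 against 180 CPM, log2 ratios of −1.54 (−2.11 to −1.01) and −1.32 (−1.73 to −0.93). Htr2c, another serotonin receptor gene, was level labelled control, at 265 and 264 CPM, and lower in Drd1-type nuclei labelled Cxcl12-cKO, at 215 against 458 CPM. Drd3, the D3 receptor gene, had 16 against 7 UMIs and 29 against 7 UMIs, with the first ratio's interval including 0 (0.78, −0.53 to 2.36). Oprm1, the mu opioid receptor gene of striosomes, did not differ beyond counting error, at 0.18 (−0.44 to 0.83) and −0.32 (−0.89 to 0.23).

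Shares of nuclei were compared at a common depth. Each nucleus was thinned to 3000 UMIs, which left out no nucleus. Penk was then seen in 45.5% (35.4 to 55.8) of Drd2-type and 4.20% (1.38 to 9.53) of Drd1-type nuclei, against 0.788% of 4063 excitatory nuclei, which give a level of background. Before thinning the shares were 75.8% and 14.3%, at median depths of 15631 and 15038 UMIs, and 4.92% in excitatory nuclei at 19993. Tac1 was seen in 31.1% (22.9 to 40.2) of thinned Drd1-type nuclei, 0.0492% of excitatory nuclei and 0 of 99 Drd2-type nuclei, which allows up to 3.03% by a limit of 3 nuclei. Before thinning these were 66.4%, 0.689% and 2.02%. Adora2a was seen in 35.4% (26.0 to 45.6) of thinned and 76.8% of unthinned Drd2-type nuclei, in 0.0492% and 0.517% of excitatory nuclei, and in 0 of 119 Drd1-type nuclei at either depth, which allows up to 2.52%.

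The 51 equal nuclei carried mainly direct pathway transcripts. Of the 41 left without the interneuron-marked nuclei, 33 had more direct than indirect list CPM and 8 the reverse, with summed levels of 627 and 283 CPM. Their Tac1 level was 130 CPM and their Penk level 39.4 CPM. For comparison, 39 of 48 Drd1-type nuclei resting on 1 Drd1 UMI and 64 of 68 resting on 2 or more had more direct list CPM. All 87 Drd2-type nuclei had more indirect list CPM, 12 of them with only 1 to 3 Drd2 UMIs. Drd1 was the receptor counted at the lower level, and the balance of Drd1-type and Drd2-type nuclei given above leaves these 51 nuclei out.

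The transcripts most like each receptor across the 269 nuclei were named by Spearman correlation of scaled counts, as a description over nuclei that share 2 libraries. For Drd2 they were Adora2a (0.82), Penk (0.69), Grik3 (0.69), Nell1 (0.63) and Oprd1 (0.61). For Drd1 they were Sntg2 (0.51), Adarb2 (0.49), Ebf1 (0.48), Tac1 (0.45) and Cntnap3 (0.43). Most opposed to Drd1 was Drd2 (−0.61), and most opposed to Drd2 was Lingo2 (−0.68).

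The promoters of Drd1 and Drd2, which cut the classes, and of Tac1, the direct pathway neuropeptide gene with a cAMP response motif in this window, are shown from 250 bases before to 50 bases after the gene start, 5′ to 3′ on the gene's strand, from RefSeq (GRCm38.p6). Capitals mark TGCGTCA or TGACG on either strand.
Drd1, chr13:54055609-54055908, minus strand: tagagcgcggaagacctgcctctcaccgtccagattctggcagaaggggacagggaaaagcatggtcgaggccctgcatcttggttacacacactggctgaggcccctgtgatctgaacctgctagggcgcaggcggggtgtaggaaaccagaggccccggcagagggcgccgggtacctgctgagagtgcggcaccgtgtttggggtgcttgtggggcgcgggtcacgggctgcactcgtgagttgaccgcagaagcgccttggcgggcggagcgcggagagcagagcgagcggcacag
Drd2, chr9:49340153-49340452, plus strand: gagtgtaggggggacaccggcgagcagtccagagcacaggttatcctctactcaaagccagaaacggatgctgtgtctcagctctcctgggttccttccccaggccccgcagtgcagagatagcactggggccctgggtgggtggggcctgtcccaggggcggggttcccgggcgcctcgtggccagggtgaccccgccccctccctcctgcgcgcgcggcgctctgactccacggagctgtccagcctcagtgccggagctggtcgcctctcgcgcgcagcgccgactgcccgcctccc
Tac1, chr6:7554811-7555110, plus strand: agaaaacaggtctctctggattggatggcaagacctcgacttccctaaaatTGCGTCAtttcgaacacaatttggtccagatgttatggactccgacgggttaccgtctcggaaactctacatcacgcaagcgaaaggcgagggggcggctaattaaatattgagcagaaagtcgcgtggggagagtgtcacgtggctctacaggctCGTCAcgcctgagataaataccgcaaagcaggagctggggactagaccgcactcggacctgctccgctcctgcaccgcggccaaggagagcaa
Neither motif is in the Drd1 or Drd2 window shown. Drd1 has 2 promoter entries, of which only the first was read. The Tac1 window holds TGCGTCA at 1 place and the shorter motif at 2, one of them inside TGCGTCA on the other strand. Of 32851 promoters of this length, 695 (2.12%) hold TGCGTCA and 6837 (20.8%) hold TGACG, so a match is a description of the letters and not a site.

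Between the libraries, the summed striatal programme was near level over all members, though it moved in opposite directions among female and male nuclei. Of 8158 genes with 50 or more UMIs, 77 (0.944%) were at least 2-fold higher and 37 (0.454%) at least 2-fold lower in members labelled Cxcl12-cKO, and none of the 15 identity genes was among them, a count near these shares. By mouse the balance turned, with 134 higher and 61 lower among female nuclei and 40 higher and 89 lower among male nuclei. The identity list summed to 12717 CPM labelled control and 12638.5 CPM labelled Cxcl12-cKO, or −0.01 on the log2 scale (−0.03 to 0.02), against a median of −0.00 over all genes measured. By mouse the identity list stood at −0.20 among female and 0.30 among male nuclei. The 16 genes from dopamine to cAMP stood at −0.05 (−0.08 to −0.02) and the direct pathway list at −0.07 (−0.22 to 0.07). The list from dopamine to cAMP also parted by mouse, at −0.16 among female and 0.17 among male nuclei. The indirect pathway list was higher labelled Cxcl12-cKO, at 830 against 694 CPM (0.26, 0.16 to 0.36), with 6 of 6 genes above 0 and none past 2-fold. Drd2-type nuclei were 61 of 156 members labelled Cxcl12-cKO, with 1065369 of 2484306 UMIs. They were 38 of 113 members labelled control, with 667208 of 1935975 UMIs. The part of this class make-up in the list's ratio was not tested, and the balance of the classes differed by less than counting error. Within Drd2-type nuclei the list stood at 0.30 (0.18 to 0.43), but at 0.01 (−0.13 to 0.14) without the marked nuclei, when the levels were 1439 CPM labelled control and 1446 CPM labelled Cxcl12-cKO. Without the marked nuclei it stood at 0.13 (0.01 to 0.25) over all members. Channels of excitability, among 13 genes, summed to −0.00 (−0.03 to 0.02), and 13 glutamate receptor subunit genes to 0.03 (0.00 to 0.05), with Grin3a and Grik1 past 2-fold.

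Immediate early genes, which rise within minutes of strong synaptic activity, were lower over all members labelled Cxcl12-cKO, and mostly in the nuclei with equal receptor counts. The 13-gene list stood at 479 CPM against 636 CPM labelled control, a log2 ratio of −0.41 (−0.52 to −0.29). Most of the list's UMIs were Homer1, a synaptic scaffold gene, with 1005 and 947 UMIs of 1191 and 1232. Homer1 itself stood at 405 CPM against 489 CPM labelled control, so other genes of the list also carried the fall. The list's ratio was −0.30 among female and −0.72 among male nuclei. In the 25 and 26 equal nuclei the list stood at 932 and 324 CPM (−1.52, −1.83 to −1.23). Of these nuclei 10 were interneuron-marked, and no value without them is given. The ratio was smaller within the classes, at −0.18 (−0.34 to −0.01) in Drd1-type and 0.04 (−0.18 to 0.26) in Drd2-type nuclei. A score of 3 or more gave −0.12 over all members. In other GABA-gated nuclei it was 0.01 (−0.12 to 0.13), and in excitatory nuclei −0.25 (−0.27 to −0.23).

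Genes of an interferon-γ response list were barely counted in these neurons. The study scored such a response in neurons as well as in myeloid cells. Its neuronal score used genes raised in midbrain neurons after interferon-γ injection, not the list used here. It reported a higher score in Cxcl12-cKO excitatory and inhibitory neurons, and the counts below are not a measure of that score. The 22-gene list summed to 49 UMIs (25.3 CPM) labelled control and 71 UMIs (28.6 CPM) labelled Cxcl12-cKO, or 0.17 on the log2 scale (−0.37 to 0.73), with no gene reaching 50 UMIs. Over all members a difference was not detectable at this depth. Among female nuclei the ratio was 1.00 (0.08 to 2.14), among male nuclei 0.05 (−1.13 to 1.13) and in parenchyma 0.42 (−0.21 to 1.09). The 12 genes of injury and regrowth stood at 193 and 198 CPM (0.03, −0.16 to 0.23). Cxcl12 and its receptor genes Cxcr4 and Ackr3 had 6 and 10 UMIs in all.

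**Figure D4:**
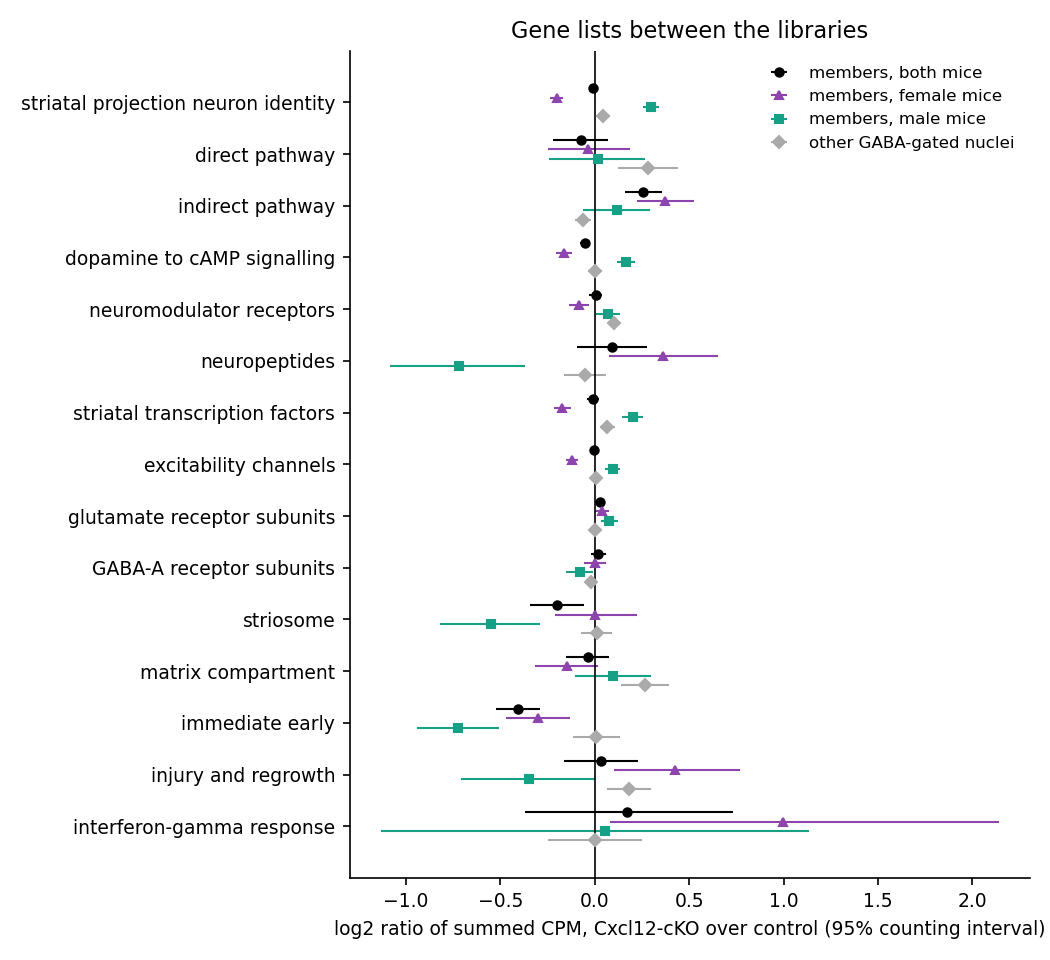
Log2 ratio of summed CPM, library labelled Cxcl12-cKO over library labelled control (horizontal, bars give the 95% counting interval), for gene lists in all members (black circles), members assigned to female (triangles) and male (squares) mice, and other GABA-gated nuclei (grey diamonds). The identity list lies at −0.01 in all members, at −0.20 among female and at 0.30 among male nuclei. The immediate early list lies below 0 in members of both sexes.

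Single genes that differed most between the libraries, among those whose ratio had the same sign in both classes and both sexes, were few and often uneven. Those higher labelled Cxcl12-cKO were Npsr1, Plpp3, Grik1, 4930473D10Rik, Igf1, Bnc2, Npas1 and Kcnmb2. Lesion members held 33 of the 58 Plpp3 and 52 of the 90 Bnc2 UMIs labelled Cxcl12-cKO. In parenchyma alone, all 13 named genes past 2-fold between the labels stayed so in the same direction. Npsr1, the neuropeptide S receptor gene, had 75 UMIs labelled Cxcl12-cKO and none labelled control, but 78.7% of them lay in 1 nucleus and all 75 in nuclei assigned to the female mouse. Among male nuclei Npsr1 was listed at 0 in both libraries, so its sign there came only from the 0.5 UMI added to each sum. Grik1, a kainate receptor subunit gene, stood at 116 CPM labelled control and 430 CPM labelled Cxcl12-cKO in all members, and at 9.47 and 139 CPM without the marked nuclei. Its ratio was 1.82 (1.46 to 2.22) among female and 2.51 (2.13 to 2.91) among male nuclei, and −0.15 (−0.20 to −0.10) in other GABA-gated nuclei. The Grik1 call depended on the score minimum, since the ratio was 0.43 at a score of 8 or more and 0.83 at a score of 3 or more. Kcnmb2, a potassium channel subunit gene, stood at 44.9 and 132 CPM, and without the marked nuclei only 1 and 9 UMIs were left. Npas1 was in the same position, with 0 and 1 UMI left. Igf1, the insulin-like growth factor gene, had 11 and 74 UMIs (2.34, 1.47 to 3.45), of which 5 and 20 were left.

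Those lower labelled Cxcl12-cKO were Pla2g6, Trpc4, Rwdd3, Sema5b, Cnr1, 0610043K17Rik, Kcnt2 and Ankfn1. Cnr1, the cannabinoid CB1 receptor gene of striatal terminals, stood at 262 CPM labelled control and 139 CPM labelled Cxcl12-cKO, or −0.91 on the log2 scale (−1.11 to −0.71), and no single nucleus held over 7.68% of its UMIs in a library. It was lower in Drd1-type (−0.96, −1.23 to −0.69) and Drd2-type nuclei (−0.65, −1.02 to −0.29), and it stood at −1.51 (−1.78 to −1.25) among female but −0.05 (−0.43 to 0.32) among male nuclei. In other GABA-gated nuclei Cnr1 was at 0.27 (0.13 to 0.42). Sema5b, a guidance molecule gene, stood at 114 and 55.6 CPM (−1.03, −1.35 to −0.72), lower among female (−0.59) and male (−1.75) nuclei alike. Pla2g6 had 47 and 10 UMIs, with 66.0% of the control UMIs in 1 nucleus, and 41.5% of control Trpc4 UMIs lay in 1 nucleus.

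Genes that mark a neuron's place in the striatum were read as well. The ventral and lateral list, Crym, Wfs1, Cnr1, Cartpt, Nts and Drd3, summed to 317 CPM labelled control and 217 CPM labelled Cxcl12-cKO (−0.54, −0.71 to −0.38). Cnr1 made up most of that sum, and Crym, Wfs1 and Drd3 stood at 0.16 (−0.42 to 0.76), 0.40 (−0.25 to 1.10) and 0.36 (−0.29 to 1.05). Among female nuclei the list stood at −0.94 (−1.16 to −0.71) and among male nuclei at −0.02 (−0.34 to 0.29). Cartpt and Nts, both neuropeptide genes, had 13 UMIs each labelled Cxcl12-cKO and none labelled control. The striosome list, 6 genes of the patch compartment, stood at −0.20 (−0.35 to −0.06), with 1 gene (Sema5b) past 2-fold, and the matrix list at −0.04 (−0.15 to 0.08). In the contrast of classes, the ventral and lateral list was higher in Drd1-type nuclei of both libraries, at 410 against 214 CPM and 276 against 168 CPM.

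Within the library labelled Cxcl12-cKO, lesion and parenchyma members could be set side by side, with 37 and 119 nuclei, nearly all of the lesion nuclei female. Of 6063 genes measured, 155 (2.56%) were at least 2-fold higher and 569 (9.38%) at least 2-fold lower in lesion members. The genes named for this contrast beyond the lists were chosen after their values were seen. The lower genes held many long non-coding RNAs (lncRNAs), transcripts that are kept largely in the nucleus. Of the 557 lower genes with an annotated type, 150 (26.9%) were lncRNAs, against 5.44% of all typed genes measured, and the 328 lncRNAs had a median log2 ratio of −0.71 against −0.04 for all genes. Far1os, Gm28376 and Gm16351 led them, with 0 UMIs in lesion members and 147, 145 and 122 in parenchyma members, at least 10.6-fold, 10.4-fold and 8.77-fold higher in parenchyma when 3 UMIs are put in place of 0.

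The lower lncRNA level was seen nucleus by nucleus and in both libraries. The share of a member's UMIs from lncRNA genes had a median of 5.90% in Cxcl12-cKO lesion (range 5.26 to 7.58) and 12.9% in Cxcl12-cKO parenchyma (4.79 to 18.5). The medians labelled control were 7.11% in lesion (5.45 to 8.39) and 12.5% in parenchyma (5.30 to 20.2). The ranges overlapped, though only 8 of 119 and 8 of 103 parenchyma members lay at or below the highest lesion member. Drd1-type and Drd2-type nuclei were alike, with medians of 5.99% and 5.82% in Cxcl12-cKO lesion. Neurons outside the rule had like medians. In lesion and parenchyma, the medians in other GABA-gated nuclei were 6.82% and 11.7% labelled Cxcl12-cKO, and in excitatory nuclei 6.64% and 12.35%. Mitochondrial transcripts went the other way, with medians of 0.155% in lesion and 0.0427% in parenchyma members labelled Cxcl12-cKO. The part of RNA quality in these differences was not tested.

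**Figure D5:**
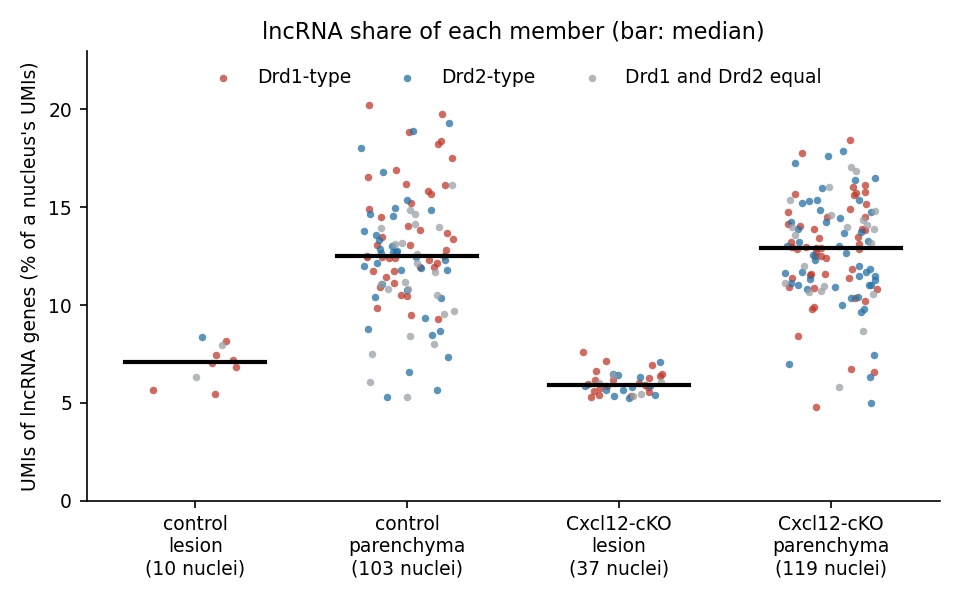
Share of each member's UMIs that came from lncRNA genes (vertical, %), by region and library, coloured by class, with a bar at the median. Lesion medians lie at 7.11% (control) and 5.90% (Cxcl12-cKO) and parenchyma medians at 12.5% and 12.9%.

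Striatal identity transcripts were counted in lesion members of both libraries. In the library labelled Cxcl12-cKO the 15 identity genes summed to 17674 CPM in lesion and 11552 CPM in parenchyma, a log2 ratio of 0.61 (0.58 to 0.65). Of these genes 13 of 15 stood above 0 and none passed 2-fold, against a median of −0.04 over all genes measured. In the 10 lesion members labelled control the ratio of the sums was −0.18 (−0.25 to −0.11), so the direction was not shared. Interneuron-marked nuclei were 1 of 37 in Cxcl12-cKO lesion and 14 of 119 in Cxcl12-cKO parenchyma, and 0 of 10 and 10 of 103 labelled control. Without them the Cxcl12-cKO ratio was 0.45 (0.42 to 0.49).

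Homer1 was higher in lesion than in parenchyma members of both libraries. It stood at 658 against 350 CPM labelled Cxcl12-cKO (0.91, 0.71 to 1.11) and at 1159 against 432 CPM labelled control (1.43, 1.18 to 1.66). Within the library labelled Cxcl12-cKO it was higher in Drd1-type (0.94, 0.68 to 1.20) and Drd2-type nuclei (0.52, 0.11 to 0.89), and among female nuclei alone (0.95, 0.71 to 1.18). Other GABA-gated nuclei of that library stood at −0.37 (−0.77 to −0.01). Penk was lower in lesion Drd2-type nuclei, at 120 against 261 CPM (−1.09, −1.90 to −0.43), with 18 UMIs in the 12 lesion nuclei. Its ratio over all members labelled control was −0.95 (−2.26 to −0.02). That ratio is not within a class, since Drd2-type nuclei were 1 of 10 lesion and 37 of 103 parenchyma members labelled control. The part of class make-up in it was not tested.

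Fibroblast transcripts were higher in lesion members labelled Cxcl12-cKO, and other cell types gave no like difference beyond counting error. The fibroblast list of Col1a1, Col1a2, Col3a1 and Dcn summed to 136 CPM in lesion and 27.9 CPM in parenchyma members labelled Cxcl12-cKO, and to 53.0 and 47.1 CPM labelled control (2.29, 1.74 to 2.84, and 0.25, −1.09 to 1.22). In other GABA-gated nuclei labelled Cxcl12-cKO it stood at 215 and 34.2 CPM. The astrocyte list stood at 27.2 and 14.2 CPM (0.97, −0.17 to 1.96), the microglia and macrophage list at 49.9 and 41.1 CPM (0.30, −0.47 to 0.97) and the oligodendrocyte list at 109 and 125 CPM (−0.19, −0.68 to 0.25) in lesion and parenchyma members of that library. Of the oligodendrocyte genes, Mag and Mog had no UMI in lesion members and 14 each in parenchyma members. Their part in the regional differences was not tested. The genes leading the higher side were Impg1, Bnc2, Plpp3, Cped1, Tmsb4x and Apoe. In other GABA-gated nuclei labelled Cxcl12-cKO, Bnc2, Plpp3 and Cped1 stood at log2 ratios of 3.66, 1.99 and 3.01. In excitatory nuclei they stood at 3.33, 2.63 and 2.49, and in members at 2.66, 2.61 and 2.47. Tmsb4x and Apoe stood at 0.98 and 1.83 in other GABA-gated nuclei, −0.46 and 0.67 in excitatory nuclei, and 2.45 and 2.40 in members. Impg1, which members carry and other GABA-gated nuclei hardly do, had 73 UMIs in 37 lesion and 36 in 119 parenchyma members (3.22, 2.64 to 3.85), and 1 and 51 labelled control (−1.54, −7.44 to 0.43). Tmsb4x, Apoe and Plpp3 rested on 1 nucleus each for 66.7%, 58.9% and 54.55% of their lesion UMIs, and Cped1 and Bnc2 for 40% and 32.7%.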

How the data were processed

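Nuclei of 2 libraries (1 for each genotype, each from 1 male and 1 female mouse) were measured by 3′ single-nucleus RNA-seq with a tag for lesion or parenchyma, and the authors deposited 4 filtered matrices of raw UMI counts per gene and barcode. The submitters' processing notes name Cell Ranger 9.0.0 and GRCm39. The members and gene lists were chosen with earlier results of these data known, and the groups came from the sample labels.

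For each class and library, UMIs were pooled over nuclei, scaled to CPM and compared as log2 ratios with 0.5 UMI added to each sum. A gene needed 20 UMIs in each library (classes, members against other nuclei) or 50 UMIs over both groups (genotype, region), and a log2 ratio of 1 or more in size was called. With 1 library per genotype no test was run. Intervals are 95%, exact binomial for shares and ratios and Poisson for levels, and cover counting error only. A value of 0 was given a floor of 3 UMIs over the group. Shares of nuclei were also read after thinning each nucleus to 3000 UMIs.

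Other GABA-gated nuclei had a score of 1 or 0, and excitatory nuclei 2 or more Slc17a7 and at most 1 Gad1 and Gad2 UMI. Nuclei were assigned to a mouse by sex-linked transcripts, and 32 members (11.9%) had UMIs of both sexes. No doublet caller was run. Where features shared a symbol (52 features), the one with more UMIs kept it. Gene types came by ID from a GENCODE annotation of GRCm38 for 31961 of 33696 genes (94.85%), and promoters from RefSeq on GRCm38.p6.

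Genes named for a class, and for members against other nuclei, were the 10 on each side with the largest smaller log2 ratio of the 2 libraries among genes with 50 UMIs in each, the 6 genes of the rule left out. For genotype they were up to 8 on each side whose interval bound lay farthest from 0 among genes moving the same way in both classes and both mice. Members of the gene lists were named as well, and some genes that met these rules are not reported here. The alternatives were other gates, class margins, minimum UMIs, scalings and single mice. The work used matplotlib 3.10.9, pandas 2.3.3, scipy 1.17.1 and numpy 2.4.6 under Python 3.11.15, and the calculations were tested on simulated data.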

Additional observations from a re-analysis of the deposited data

Results flagged for a closer look

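For 7 gene lists the female and the male mouse moved in opposite directions between the libraries. The values are log2 ratios of summed CPM, Cxcl12-cKO label over control label, and the differences between the mice were not tested. With 1 mouse of each sex per library, sex, mouse and dissection cannot be told apart. The striatal identity list stood at −0.20 among female and 0.30 among male nuclei, and the list from dopamine to cAMP at −0.16 and 0.17. Striatal transcription factor genes stood at −0.17 and 0.20, excitability channel genes at −0.12 and 0.094, and neuromodulator receptor genes at −0.083 and 0.071. Neuropeptide genes stood at 0.36 and −0.72, and genes of injury and regrowth at 0.42 and −0.35. The share of members among GABA-gated nuclei also parted, at 0.89 among female and −0.054 among male nuclei.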

How the results depend on the processing

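The number of genes 2-fold higher in Drd2-type nuclei (125) was 63 with a filter on quality, 80 at a score of 8 or more, 70 in the female and 41 in the male mouse, 58 with 3 times the UMI minimum, 876 with none, and 41 without interneuron-marked nuclei, a removal chosen after the data were seen. The Drd1-type count (44) was 19 and 693 under the last minimum settings, 3 times and none. Under the same settings, genes higher and lower labelled Cxcl12-cKO (77 and 37) were 24 and 5, then 3090 and 2616, those higher in members than in other nuclei (768) were 1652 with none, and the numbers of genes 2-fold higher in lesion members of Cxcl12-cKO (155) and genes 2-fold lower in lesion members of Cxcl12-cKO (569) were 41 and 113, then 2213 and 2914. In the female mouse alone there were 141 members, a share ratio of 0.89, 60.5% Drd1-type labelled control, 134 higher and 61 lower genes labelled Cxcl12-cKO, and an interferon-γ ratio of 1.00 (0.08 to 2.14). In the male mouse alone there were 92 members, 40 higher and 89 lower genes, and an immediate early ratio of −0.72. That ratio was −0.12 at a score of 3 or more, against −0.41. A class margin of 3 UMIs left 18.6% and 10.3% Drd1-type. The mouse-only values rest on fewer nuclei, and the cause of the other shifts was not tested. Of 13 named genes past 2-fold between the labels, 10 remained so at a score of 8 or more and 8 at 3 or more. Tacr1 turned direction in 1 library without interneuron-marked nuclei.

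No paired analysis was possible because each genotype is 1 library, so the groups share only replicate number 1. The single library per genotype limits every contrast between labels, low counts limit Drd1 and the interferon-γ genes, and 25 interneuron-marked nuclei remain among the members.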
